A study of Mus musculus with 6 samples.

Results

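Beta cells of the pancreatic islet keep a small set of otherwise widespread genes silent, and these are called disallowed genes. The 9 followed here are Ldha, Slc16a1, Hk1, Hk2, Acot7, Oat, Cxcl12, Smad3 and Zfp36l1. They were chosen by name, through the RefSeq accession given for each probe of the array. No measured value entered this rule, although the members were chosen with earlier results of these data known. They are represented by 14 of the 39426 probes that could be used, and 8 of the 9 genes were among the 19021 genes tested.

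The samples were islets of male mice of ICR background, aged 16 weeks per the labels, and each group had 2 arrays. All 3 groups carried 2 floxed alleles of Trsp, the gene of the transfer RNA that brings selenocysteine to selenoproteins. TrspFF islets (TrspFlox/Flox) had no Cre and served as controls. Trsp-RIPKO islets (TrspFlox/Flox::RIP-Cre) also carried Cre under a rat insulin promoter, which is known to be active in some hypothalamic neurons as well as in beta cells. Trsp-Ins1KO islets (TrspFlox/Flox::Ins1-Cre) carried Cre under Ins1, an insulin gene used mainly by beta cells. No group with Cre and without the floxed alleles was analysed here, so an effect of Cre itself and of the loss of Trsp cannot be told apart. The submitters link the loss of Trsp to oxidative stress, and the comparisons ask whether genes that beta cells normally silence had different mRNA levels in islets of either Cre line.

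A mature beta cell couples insulin release to glucose by sending nearly all of its pyruvate to the mitochondria. Lactate dehydrogenase A (Ldha) would turn pyruvate into lactate, and the monocarboxylate transporter MCT1 (Slc16a1) would let lactate and pyruvate cross the plasma membrane, so that both are kept low. Hexokinases 1 and 2 (Hk1, Hk2) bind glucose tightly and would let the cell use glucose when blood glucose is low. The other members act in acyl-CoA hydrolysis (Acot7), ornithine breakdown (Oat), chemokine and TGF-beta signalling (Cxcl12, Smad3) and mRNA decay (Zfp36l1). Other cells of the islet and its surroundings can use these genes, so that a whole-islet sample may hold their mRNA from several cell types.

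The promoters of Ldha, Slc16a1 and Hk2 are shown because Ldha and Slc16a1 differed between groups and Hk2 stayed below detection. E-boxes and hypoxia response cores are also known control elements of glycolytic genes. Each window covers the 250 bases before a start site in RefSeq's GRCm38.p6 assembly, read 5′ to 3′ on the gene's strand, and all 9 members matched, with 11 windows. Ldha lies on chr7:46845554-46845803 (plus strand), Slc16a1 on chr3:104638414-104638663 (plus strand) and Hk2 on chr6:82774455-82774704 (minus strand). Capitals mark matches, on either strand, to the E-box CACGTG, the hypoxia response core ACGTG, which every CACGTG contains, and the antioxidant response core TGACNNNGC.

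Ldha: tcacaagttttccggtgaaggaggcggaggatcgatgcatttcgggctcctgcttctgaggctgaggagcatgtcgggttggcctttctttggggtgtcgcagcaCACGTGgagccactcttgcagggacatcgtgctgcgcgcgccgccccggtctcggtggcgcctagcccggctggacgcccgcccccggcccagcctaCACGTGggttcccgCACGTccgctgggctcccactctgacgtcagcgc

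Slc16a1: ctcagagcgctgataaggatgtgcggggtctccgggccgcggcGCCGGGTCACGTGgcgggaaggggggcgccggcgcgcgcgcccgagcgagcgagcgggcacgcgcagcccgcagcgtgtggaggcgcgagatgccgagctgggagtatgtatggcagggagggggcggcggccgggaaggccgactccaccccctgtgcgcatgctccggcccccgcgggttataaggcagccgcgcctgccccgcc

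Hk2: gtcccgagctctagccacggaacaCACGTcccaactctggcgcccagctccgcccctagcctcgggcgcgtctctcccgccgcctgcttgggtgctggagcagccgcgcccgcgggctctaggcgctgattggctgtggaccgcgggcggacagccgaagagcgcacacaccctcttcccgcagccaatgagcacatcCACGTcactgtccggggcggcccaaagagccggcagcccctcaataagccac

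The Ldha window held CACGTG at 145 and 48 bases before the start, and a further ACGTG at 34. A second Ldha start had none of the 3 motifs. In Slc16a1, CACGTG lay 200 bases before the start and overlapped the window's only antioxidant core, at 207, on the opposite strand. Hk2 had ACGTG at 226 and 52 bases before its start. The Hk1 windows, which are not shown, held neither CACGTG nor ACGTG, and 1 of them held TGACNNNGC, at 9 bases before the start. Among 32851 windows of this length, 6.02% held CACGTG, 16.6% held ACGTG and 10.2% held TGACNNNGC, against 2, 3 and 2 of the 11 member windows. These matches describe the sequence and were not tested for binding.

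Levels are log2 processed intensities minus each array's 75th percentile, so that 0 is the brightness of the probe at that percentile, and a difference of 1 is a doubling relative to it. A gene was called where limma's two-sided test over all genes gave a Benjamini-Hochberg adjusted p under 0.05, and "rose" and "fell" are used of called genes alone. The labels do not say whether both arrays of a group came from separate mice; the p-values therefore reflect the spread between these arrays alone, which may be technical.

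Several facts about the arrays bear on all results. In the authors' deposited table, the TrspFF columns matched scanner data labelled Trsp-Ins1KO, and the reverse (r = 1 with the other group's file, -0.268 and -0.468 with their own, across 19486 probes), whereas the Trsp-RIPKO columns followed their own files. The scanner files' labels are used here. Which source names the 2 groups rightly is unknown, and every result below holds for the scanner files' labels alone. With the table's own names, each difference of Trsp-Ins1KO from TrspFF changes sign, the Trsp-RIPKO arrays are compared with the other pair of arrays, and 2 members are called higher and 1 lower in Trsp-RIPKO. Although all mice are labelled male, Xist, the RNA of the inactive X chromosome, was well above background in TrspFF (-0.56 and -0.32) and Trsp-RIPKO (1.05 and 1.34) and not in Trsp-Ins1KO, and the Y-linked Ddx3y was measured on all 6 arrays. Trsp itself has no probe in the annotation used here, and the labels were not checked against the targeted gene. TrspFF and Trsp-Ins1KO shared a slide, whereas both Trsp-RIPKO arrays lay on another, on which the scanner software marked them for evaluation, so that an effect of the slide and one of RIP-Cre genotype cannot be told apart. The 75th percentile of intensity lay between 203 and 247.2 for TrspFF and Trsp-RIPKO but between 110.7 and 121.9 for Trsp-Ins1KO. Scaled to 7 spike-in probes instead, the median of all genes moved by -0.20 in Trsp-RIPKO and -1.37 in Trsp-Ins1KO against TrspFF, and by -1.17 between the lines, so every direction below is relative to the other genes of the array.

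The members were called about as often as genes in general. Against TrspFF, 2 of the 8 tested members rose in Trsp-RIPKO (25%), where 36.4% of all genes were called, 18.9% higher and 17.5% lower. In Trsp-Ins1KO, 2 rose and 2 fell (50%), where 45.9% of all genes were called, 23% in each direction. Between the lines, 1 was higher and 2 were lower in Trsp-Ins1KO than in Trsp-RIPKO (37.5%), against 38.7% of all genes, 19.3% higher and 19.4% lower. These shares lie near the background and are no result about the set. The median change of the 8 members was 0.26 in Trsp-RIPKO and 0.14 in Trsp-Ins1KO, beside -0.0002 and -0.01 over all genes, and -0.14 beside -0.01 between the lines. With TrspFF 1 or TrspFF 2 left out, no member was called in Trsp-RIPKO. Calls over all genes fell sharply in those fits too, so this is no result about the members. Over the fits that leave out 1 array, the change in Trsp-RIPKO was 0.76 to 0.86 for Slc16a1 and 0.37 to 0.51 for Acot7. Counts in the other comparisons also fell in some of these fits. The comparisons share arrays and are not independent of each other.

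**Figure D1:**
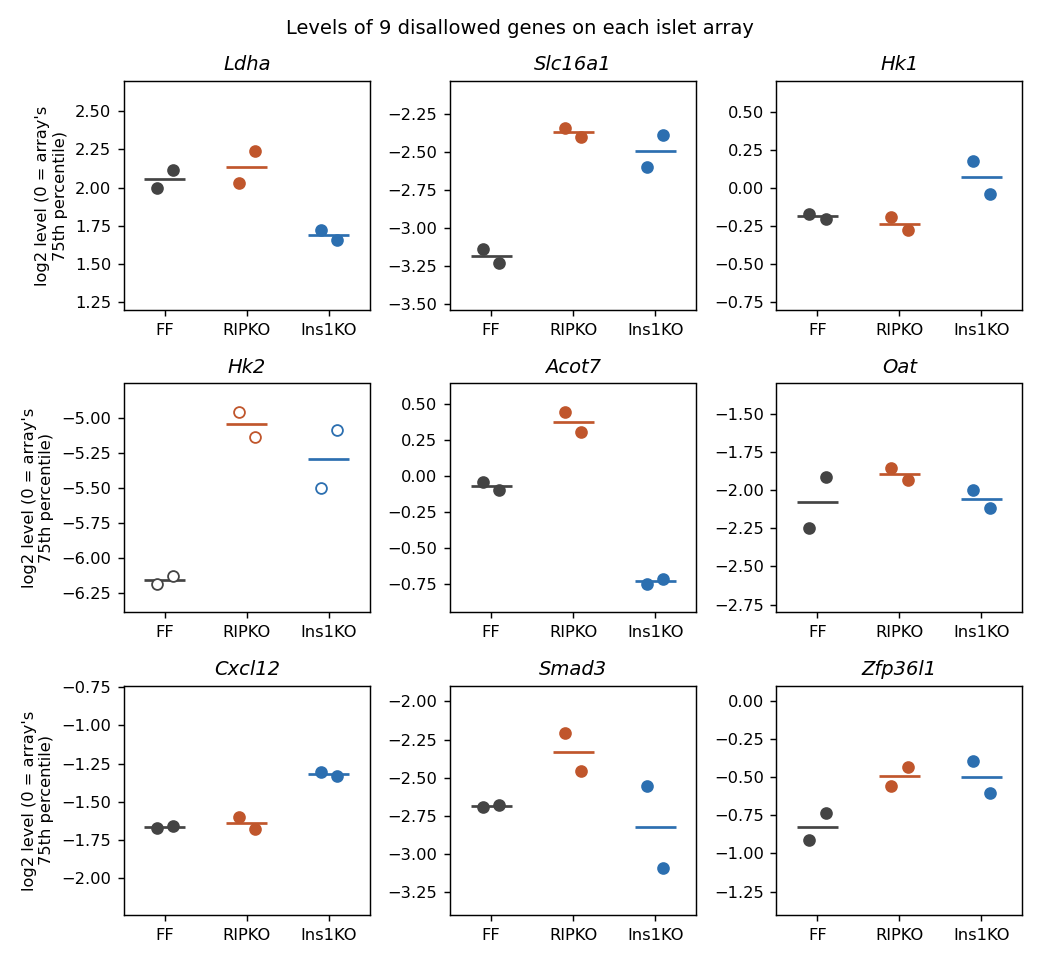
Log2 level of each of the 9 genes on each array (vertical axis, 0 at the array's 75th percentile, separate range per panel) in TrspFF (FF), Trsp-RIPKO (RIPKO) and Trsp-Ins1KO (Ins1KO) islets; points are arrays, bars are means of 2, and open points were not well above background. Slc16a1 is higher on all 4 Cre arrays than on both TrspFF arrays, Acot7 separates the 3 groups, and Hk2 has open points alone.

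Slc16a1 rose in both lines under the scanner files' labels. Its level, from its 1 probe, was -3.14 and -3.23 on the TrspFF pair of arrays, -2.34 and -2.40 on the Trsp-RIPKO pair and -2.60 and -2.39 on the Trsp-Ins1KO pair. Both TrspFF arrays were the lowest, with no overlap, whereas the 2 lines overlapped. The rise was 0.81 (SE 0.096, 1.75-fold, adjusted p = 0.00774) in Trsp-RIPKO. In Trsp-Ins1KO it was 0.69 (SE 0.096, 1.61-fold, adjusted p = 0.00557), although spike-in scaling turns that value to -0.67, against a median of -1.37 for all genes. The lines differed by -0.12 (SE 0.096, adjusted p = 0.358), which leaves their order unsettled. The call in Trsp-RIPKO was lost without TrspFF 1 (adjusted p = 0.0503) or TrspFF 2 (0.0509), with changes of 0.86 and 0.76. With normexp background correction the rise in Trsp-RIPKO was 0.28. With the names of the authors' table, Slc16a1 differed by 0.12 in Trsp-RIPKO (adjusted p = 0.356), by -0.69 in Trsp-Ins1KO (adjusted p = 0.00558) and by -0.81 between the lines (adjusted p = 0.00774).

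Ldha gave different answers from its 3 probes, all annotated to the same RefSeq transcript (NM_001136069) and all well above background on every array. The brightest, A_55_P2012984, lay at 2.00 and 2.12 on the TrspFF pair of arrays, 2.03 and 2.24 on the Trsp-RIPKO pair and 1.72 and 1.66 on the Trsp-Ins1KO pair. TrspFF overlapped with Trsp-RIPKO, and both Trsp-Ins1KO arrays were lower. This probe, which represents the gene in the counts, differed by 0.08 in Trsp-RIPKO (SE 0.099, adjusted p = 0.55) and fell by 0.37 in Trsp-Ins1KO (SE 0.099, 1.29-fold, adjusted p = 0.0339). It was also lower in Trsp-Ins1KO than in Trsp-RIPKO, by -0.45 (adjusted p = 0.0224), a call lost without Trsp-RIPKO 2 (0.0821), Trsp-Ins1KO 1 (0.0526) or Trsp-Ins1KO 2 (0.0705). With the names of the authors' table, this probe was higher by 0.45 in Trsp-RIPKO (adjusted p = 0.0223) and by 0.37 in Trsp-Ins1KO (adjusted p = 0.0338), and the lines differed by -0.08 (adjusted p = 0.548).

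The second Ldha probe, A_55_P2141876, lay at -2.44 and -2.49 on the TrspFF pair of arrays, -1.74 and -1.51 on the Trsp-RIPKO pair and -2.21 and -1.78 on the Trsp-Ins1KO pair. Here both TrspFF arrays were lowest, and the test over 23199 probes gave a rise of 0.84 in Trsp-RIPKO (SE 0.16, adjusted p = 0.0202) and a change of 0.47 in Trsp-Ins1KO (adjusted p = 0.0683). The third, A_55_P2141878, lay at -2.34 and -2.35 on the TrspFF pair of arrays, -2.17 and -2.58 on the Trsp-RIPKO pair and -2.69 and -3.04 on the Trsp-Ins1KO pair. Its changes were -0.03 (adjusted p = 0.91) and -0.52 (adjusted p = 0.0657). In Trsp-Ins1KO the second probe thus had a positive change where the other two had negative ones, and only the brightest passed the test. The mean over the 3 probes changed by 0.30 in Trsp-RIPKO (adjusted p = 0.0237) and by -0.14 in Trsp-Ins1KO (adjusted p = 0.13), so the calls for Ldha depend on the probe. The fall in Trsp-Ins1KO was also lost without any 1 of the 4 arrays compared (adjusted p up to 0.16, changes of -0.43 to -0.31).

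**Figure D2:**
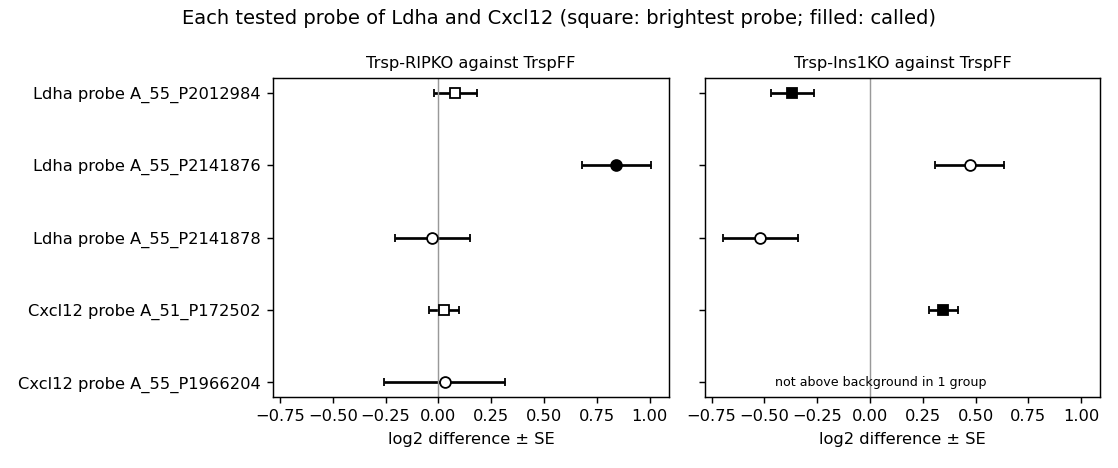
Log2 difference from TrspFF ± SE (horizontal axis) of the 3 Ldha and 2 Cxcl12 probes, for Trsp-RIPKO (left) and Trsp-Ins1KO (right); squares are the brightest probe of each gene and filled symbols passed the test. The Ldha probes range from -0.03 to 0.84 in Trsp-RIPKO and from -0.52 to 0.47 in Trsp-Ins1KO.

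Among 15 other tested genes of pyruvate and lactate handling, 1 rose and 5 fell in Trsp-RIPKO, and 4 rose and 5 fell in Trsp-Ins1KO, with median changes of -0.10 and -0.24. Slc16a7, the related transporter MCT2, rose by 1.47 in Trsp-RIPKO (adjusted p = 0.0212). Bsg, the chaperone that carries MCT1 to the membrane, fell by 0.56 there (adjusted p = 0.0186) and fell by 0.41 in Trsp-Ins1KO (adjusted p = 0.0328). Pdk3, a kinase that switches off pyruvate dehydrogenase, fell by 1.20 in Trsp-RIPKO and fell by 1.16 in Trsp-Ins1KO. Its relative Pdk4 fell by 1.23 in Trsp-Ins1KO (adjusted p = 0.00216), where Pdk2 rose by 0.90. Between the lines, 3 of the 15 were higher and 2 lower in Trsp-Ins1KO, among them pyruvate carboxylase (Pcx), by 0.69. Of the 9 genes of the shuttles that carry NADH into mitochondria, 3 fell in Trsp-RIPKO, and 3 rose and 2 fell in Trsp-Ins1KO. Gpd2, the mitochondrial enzyme of the glycerol phosphate shuttle, fell in both, by 0.52 and by 0.87. Between the lines, 3 of these 9 were higher and 2 lower in Trsp-Ins1KO.

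The 2 hexokinases gave no call. Hk1 lay at -0.17 and -0.20 on the TrspFF pair of arrays, -0.19 and -0.28 on the Trsp-RIPKO pair and 0.18 and -0.04 on the Trsp-Ins1KO pair on the probe that could be measured. Both Trsp-Ins1KO arrays were the highest, and the other 2 groups overlapped. The differences were -0.05 in Trsp-RIPKO (SE 0.097, adjusted p = 0.711), 0.25 in Trsp-Ins1KO (SE 0.097, adjusted p = 0.0836) and 0.30 between the lines (adjusted p = 0.0596). The second Hk1 probe was not well above background on any array.

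Hk2 was not well above background on any of the 6 arrays, at processed intensities of 2.70 to 6.95, and no difference is given for it. Of 16 tested genes of glucose phosphorylation and glycolysis, 1 rose and 8 fell in Trsp-RIPKO, whereas 6 rose and 3 fell in Trsp-Ins1KO. Pfkl, a phosphofructokinase subunit, fell by 0.70 in Trsp-RIPKO, and Gapdh rose by 0.62 in Trsp-Ins1KO. Between the lines, 9 of the 16 were higher and 1 lower in Trsp-Ins1KO, where the median difference was 0.40.

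Acot7, a thioesterase that splits long-chain acyl-CoA into fatty acid and coenzyme A, moved in opposite directions in the 2 lines under the scanner files' labels. Its 1 probe lay at -0.04 and -0.09 on the TrspFF pair of arrays, 0.44 and 0.31 on the Trsp-RIPKO pair and -0.75 and -0.72 on the Trsp-Ins1KO pair. No 2 groups overlapped, and the order ran from Trsp-Ins1KO through TrspFF to Trsp-RIPKO. The gene rose by 0.44 in Trsp-RIPKO (SE 0.078, 1.36-fold, adjusted p = 0.0156) and fell by 0.67 in Trsp-Ins1KO (SE 0.078, 1.59-fold, adjusted p = 0.00377). The difference between the lines was -1.11 (SE 0.078, 2.16-fold, adjusted p = 0.00138). The rise in Trsp-RIPKO was lost with median scaling (0.20, adjusted p = 0.141), with spike-in scaling (0.25, 0.287), with no filter on dim probes (0.0592) and without TrspFF 1 (0.0838), TrspFF 2 (0.0906) or Trsp-RIPKO 1 (0.059). The fall in Trsp-Ins1KO and the difference between the lines kept their sign in all 17 other settings that keep the scanner labels. Spike-in scaling is 1 of these, and it called 18077 and 18253 of all 19021 genes lower in the 2 comparisons. With the names of the authors' table, Acot7 was higher by 1.11 in Trsp-RIPKO (adjusted p = 0.00138) and by 0.67 in Trsp-Ins1KO (adjusted p = 0.00377), and the lines differed by -0.44 (adjusted p = 0.0156).

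Other acyl-CoA thioesterases did not follow one direction. Of 7 tested, 1 rose and 1 fell in Trsp-RIPKO, and 2 rose and 1 fell in Trsp-Ins1KO. Acot3, a peroxisomal thioesterase, rose by 1.37 (adjusted p = 0.0053) and by 0.94 (adjusted p = 0.00538), and Acot13 fell by 0.50 and by 0.60. Between the lines, the 1 call among the 7 was Acot9, a mitochondrial thioesterase, at -0.49.

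Oat, the mitochondrial enzyme that turns ornithine toward glutamate and proline, showed no difference that passed the test. It lay at -2.25 and -1.91 on the TrspFF pair of arrays, -1.86 and -1.93 on the Trsp-RIPKO pair and -1.997 and -2.12 on the Trsp-Ins1KO pair. The 2 TrspFF arrays spanned both Trsp-Ins1KO arrays and 1 Trsp-RIPKO array. The differences were 0.19 (SE 0.13, adjusted p = 0.294) and 0.02 (SE 0.13, adjusted p = 0.89). Of 6 tested genes around ornithine, 1 fell in Trsp-RIPKO, namely Odc1, ornithine decarboxylase, by 0.33. In Trsp-Ins1KO 2 rose and 1 fell: Aldh18a1, which makes the precursor of proline and ornithine, rose by 0.78 (adjusted p = 0.00394), and Arg1, arginase, fell by 0.67. Between the lines, 3 of the 6 were higher and 1 lower in Trsp-Ins1KO.

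**Figure D3:**
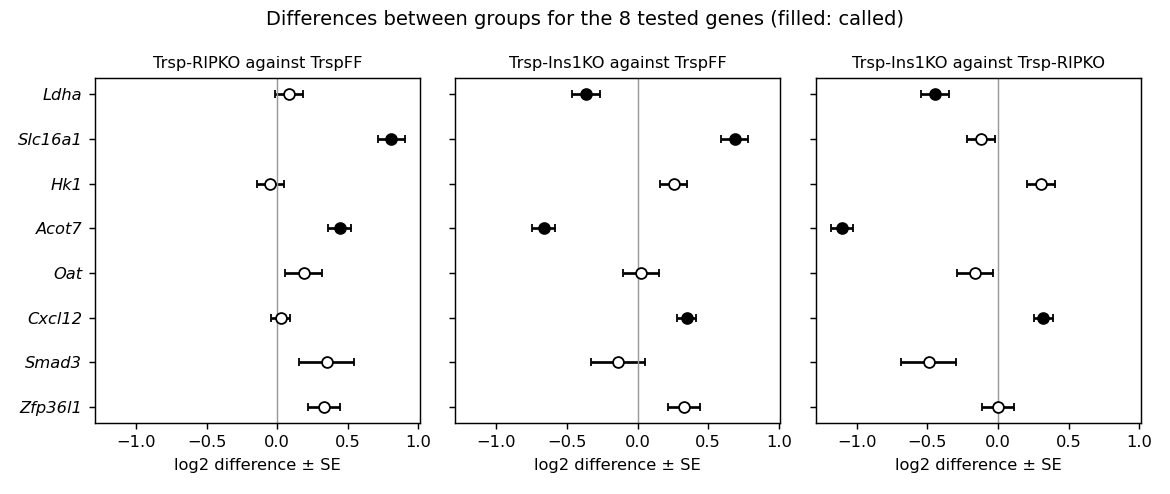
Log2 difference ± SE (horizontal axis, relative to the array's 75th percentile) of the 8 tested genes in each of the 3 comparisons; filled points have an adjusted p under 0.05. Slc16a1 stands at 0.81 and 0.69 in the 2 lines, and Acot7 at 0.44 and -0.67.

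Cxcl12, a chemokine of stromal and endothelial cells, had a pair of probes for different transcripts, and only the brighter was well above background in Trsp-Ins1KO. The probe of NM_001012477 lay at -1.67 and -1.66 on the TrspFF pair of arrays, -1.60 and -1.68 on the Trsp-RIPKO pair and -1.31 and -1.33 on the Trsp-Ins1KO pair. Both Trsp-Ins1KO arrays were higher than the other 4, which overlapped. It differed by 0.03 in Trsp-RIPKO (SE 0.067, adjusted p = 0.779) and rose by 0.35 in Trsp-Ins1KO (SE 0.067, 1.27-fold, adjusted p = 0.013), a rise that spike-in scaling turns to -1.01. The difference between the lines was 0.32 (adjusted p = 0.019); it was called in 1 of 6 fits that leave out an array, the one without Trsp-Ins1KO 2 (adjusted p = 0.0427, otherwise up to 0.0818), and was -0.84 with spike-in scaling. With the names of the authors' table, this probe was lower by -0.32 in Trsp-RIPKO (adjusted p = 0.0192) and by -0.35 in Trsp-Ins1KO (adjusted p = 0.013), and the lines differed by -0.026 (adjusted p = 0.777). The probe of NM_021704 was well above background on TrspFF 1 and both Trsp-RIPKO arrays (-3.43, -3.72 and -3.75), and not on TrspFF 2 or on either Trsp-Ins1KO array.

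For that probe, the adjusted p of Trsp-Ins1KO was 0.0116 against TrspFF and 0.0133 against Trsp-RIPKO, both lower. Neither a fold nor a bound could be given. The means of TrspFF (-3.76) and Trsp-RIPKO (-3.73) lay below the dimmest levels that counted as well above background on the Trsp-Ins1KO arrays (-3.59 and -3.39). This probe therefore cannot show whether its transcript fell there. The mean over both probes, which takes in those values below background, differed by -0.61 in Trsp-Ins1KO (adjusted p = 0.0268), against the brighter probe's sign. The brighter probe's call against TrspFF was lost without TrspFF 1 (adjusted p = 0.0844) or TrspFF 2 (0.076) and with median scaling (0.0567). Of the 2 CXCL12 receptors, Ackr3 rose by 0.74 in Trsp-Ins1KO (adjusted p = 0.0222), and Cxcr4 differed by 0.66 (SE 0.42, adjusted p = 0.255). In Trsp-RIPKO their differences were -0.28 (adjusted p = 0.251) and -0.45 (adjusted p = 0.429). Ackr3 was also higher in Trsp-Ins1KO than in Trsp-RIPKO, by 1.02.

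Smad3, which carries TGF-beta signals to the nucleus, lay at -2.69 and -2.68 on the TrspFF pair of arrays, -2.21 and -2.46 on the Trsp-RIPKO pair and -2.56 and -3.09 on the Trsp-Ins1KO pair. The Trsp-Ins1KO arrays spanned both TrspFF arrays, and both Trsp-RIPKO arrays were higher than the other 4. Its differences were 0.35 (SE 0.19, adjusted p = 0.204), -0.14 (SE 0.19, adjusted p = 0.584) and, between the lines, -0.49 (adjusted p = 0.102). Its second probe was not well above background on any array. Of 13 tested genes of TGF-beta signalling, 4 rose and 4 fell in Trsp-RIPKO, and 4 rose and 2 fell in Trsp-Ins1KO. The inhibitor Smad6 rose by 0.58 and by 1.73. The target gene Ccn2 rose as well, by 0.63 and by 0.82. Smad1, which carries bone morphogenetic protein signals, fell by 1.14 in Trsp-RIPKO (adjusted p = 0.0466). Between the lines, 3 of the 13 were higher and 1 lower in Trsp-Ins1KO.

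Zfp36l1, which binds AU-rich mRNAs and speeds their decay, lay at -0.91 and -0.74 on the TrspFF pair of arrays, -0.56 and -0.43 on the Trsp-RIPKO pair and -0.39 and -0.60 on the Trsp-Ins1KO pair. Both TrspFF arrays were the lowest, and the 2 lines overlapped. The differences of 0.33 in each line (SE 0.11, 1.26-fold) missed the threshold, with adjusted p = 0.0733 in Trsp-RIPKO and 0.0648 in Trsp-Ins1KO, and the lines differed by 0.00 (adjusted p = 0.995). Of its 2 tested relatives, Zfp36l3 rose by 1.01 and by 0.83, and Zfp36l2 differed by -0.13 (adjusted p = 0.17) and 0.19 (adjusted p = 0.0596). Between the lines Zfp36l2 was higher in Trsp-Ins1KO, by 0.32.

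Of 14 further genes from lists of disallowed genes, 12 were tested, and 5 rose in Trsp-RIPKO while 3 rose and 2 fell in Trsp-Ins1KO. Their median changes were 0.30 and 0.09, beside -0.0002 and -0.01 over all genes. Cat, the hydrogen peroxide-degrading enzyme catalase, rose by 0.85 (adjusted p = 0.00935) and by 1.39 (adjusted p = 0.00201). Igfbp4, which binds insulin-like growth factors, rose by 1.57 and by 0.73. The transcription factor Maf rose by 1.00 in Trsp-RIPKO (adjusted p = 0.035), but was well above background on only 1 of 2 TrspFF arrays. Cd302, a C-type lectin receptor, fell by 1.30 in Trsp-Ins1KO (adjusted p = 0.0032), where it was well above background on only 1 of 2 arrays. Between the lines, 2 were higher and 5 lower in Trsp-Ins1KO, Arap2 among the latter at -0.98.

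Among the profiles most like that of the brightest Ldha probe over the 6 arrays, each centred on its own mean, were Donson (root mean square difference 0.0313 on the log2 scale, among 16095 genes above background on every array) and XM_973961 (0.0363). For Slc16a1 the nearest were ENSMUST00000106005 (0.0528), AF037047 (0.0548) and Nf1 (0.0551).

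Markers of other cells differed between the same groups. They are given as the sum, over a list's tested genes, of the linear level relative to each array's 75th percentile; fewer cells of a type and less RNA per cell cannot be told apart in such samples. Beta-cell markers (18 genes, led by Ins1, Ins2 and Iapp) summed to 3460 to 3850 in TrspFF, 3810 to 4070 in Trsp-RIPKO and 6160 to 6710 in Trsp-Ins1KO. In Trsp-RIPKO 6 of the 18 fell, Ucn3 by 1.21 among them, and in Trsp-Ins1KO 9 rose and 5 fell. Ins1 rose by 0.99 and Ins2 by 0.86 in Trsp-Ins1KO, and they differed by 0.27 (adjusted p = 0.123) and 0.12 (adjusted p = 0.313) in Trsp-RIPKO. All 18 were well above background on at least 1 array.

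The other endocrine sums were lower in both lines. The 6 alpha-cell markers, led by Gcg, went from 718 to 747 in TrspFF to 618 to 666 and 510 to 528. None of the 6 was called in Trsp-RIPKO (Gcg adjusted p = 0.0824). In Trsp-Ins1KO 2 of 6 were called lower, and Gcg fell there by 0.56. The sums of the 3 delta-cell markers, dominated by Sst, went from 267 to 271 to 221 to 233 and 152 to 162, and Sst fell by 0.27 and by 0.78. In Trsp-RIPKO 1 of the 3 rose (Hhex, by 0.23) and 1 fell, and in Trsp-Ins1KO all 3 fell. The 3 PP and epsilon markers went from 666 to 672 to 314 to 326 and 461 to 518, and Ppy fell by 1.05 and by 0.68.

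Beside the rise of Slc16a1 in both lines stand markers of other cells. Acinar markers rose in both lines (16 of 18 in Trsp-RIPKO, 14 of 18 in Trsp-Ins1KO, where 1 fell), with sums of 20.2 to 21.0, 36.9 to 40.3 and 33.6 to 35.8, led by Amy2a5; the acinar regulator Ptf1a was not above background on any array. Macrophage sums went from 149 to 151 to 199 to 212 and 268 to 287 (of 11 markers, 2 rose and 2 fell, then 5 rose and 1 fell). These sums were dominated by Itgam, and the median changes of the 11 markers were 0.04 and 0.34. Of 5 tested intestinal markers, 4 were called higher in Trsp-RIPKO and 3 in Trsp-Ins1KO. Among the latter, Lct was not above background on any TrspFF or Trsp-Ins1KO array, so its call there shows no measured rise. Fabp1 was at least 13.1-fold and at least 11.6-fold above TrspFF, where it was not above background. The summed levels were 7.10 to 7.41, 9.59 to 9.77 and 9.07 to 9.58. Cdx1, Cdx2, Sis, Apoa4, Alpi and Cdh17 were not above background on any array. Of 8 hepatocyte markers, 1 rose and 1 fell in Trsp-RIPKO and 7 rose in Trsp-Ins1KO, Alb at least 17.2-fold. Their sums, 77.3 to 78.2, 74.9 to 78.0 and 79.8 to 80.0, were dominated by Ttr, which alpha cells also make. The part of these cells in the rise of Slc16a1, and in the probes of Ldha, was not tested.

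Beside Cxcl12, Smad3 and Acot7 stand stromal and vascular markers. Of 13 fibroblast and stellate markers, led by Col1a2, Dcn and Rgs5, 10 rose in Trsp-RIPKO, and 1 rose and 10 fell in Trsp-Ins1KO, with sums of 17.7 to 18.1, 26.1 to 26.2 and 8.56 to 8.62. Dcn rose by 0.48 in Trsp-RIPKO and fell by 3.03 in Trsp-Ins1KO, whereas Pdgfra and Des were not above background on any array. Of 12 endothelial markers, 5 rose in Trsp-RIPKO, and 8 rose and 1 fell in Trsp-Ins1KO, with sums of 63.4 to 64.4, 77.1 to 78.0 and 107 to 109, led by Kdr. Of 7 Schwann cell and neuron markers, 1 rose in Trsp-RIPKO, and 1 rose and 4 fell in Trsp-Ins1KO. Duct sums, dominated by Krt18, were 40.9 to 41.2, 45.6 to 46.6 and 56.5 to 59.0, with Sox9 and Muc1 not above background. Of 6 tested duct markers, 2 rose and 1 fell in each line. Cftr rose by 1.56 in Trsp-RIPKO and fell by 0.44 in Trsp-Ins1KO, Spp1 rose by 1.84 and by 0.51, and Krt7 fell by 0.56 in Trsp-RIPKO. Krt18 rose by 0.52 in Trsp-Ins1KO. The order of the fibroblast sums over the groups is also that of Acot7 and of the Smad3 means; the part of these cells in either was not tested.

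**Figure D4:**
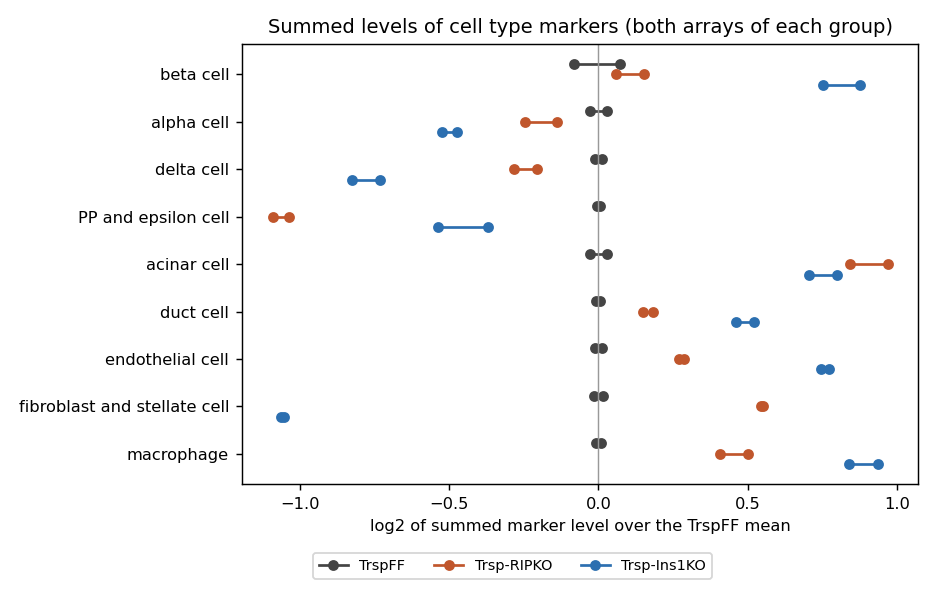
Log2 of the summed level of each marker list over its TrspFF mean (horizontal axis), with both arrays of each group joined by a line. Acinar, macrophage and endothelial sums are above TrspFF in both lines, alpha, delta, PP and epsilon sums are below, and fibroblast sums are above in Trsp-RIPKO and below in Trsp-Ins1KO. The macrophage sums are dominated by Itgam.

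Cell cycle genes differed too: 9 of 12 rose in Trsp-RIPKO, Mki67 by 1.71, and 3 rose and 2 fell in Trsp-Ins1KO. The remaining lists rested on few measured genes. T and B cell markers had 2 tested genes, both higher in Trsp-RIPKO and 1 in Trsp-Ins1KO, with 7 others not above background on any array. Of 3 erythrocyte markers 1 fell in each line, Hba-a1 by 0.89 and by 0.78. The 1 adipocyte marker measured, Fabp4, fell by 0.96 and by 1.20, while Adipoq, Plin1, Cfd, Lep and Cidec were not above background. Their part in the members' levels was not tested.

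**Figure D5:**
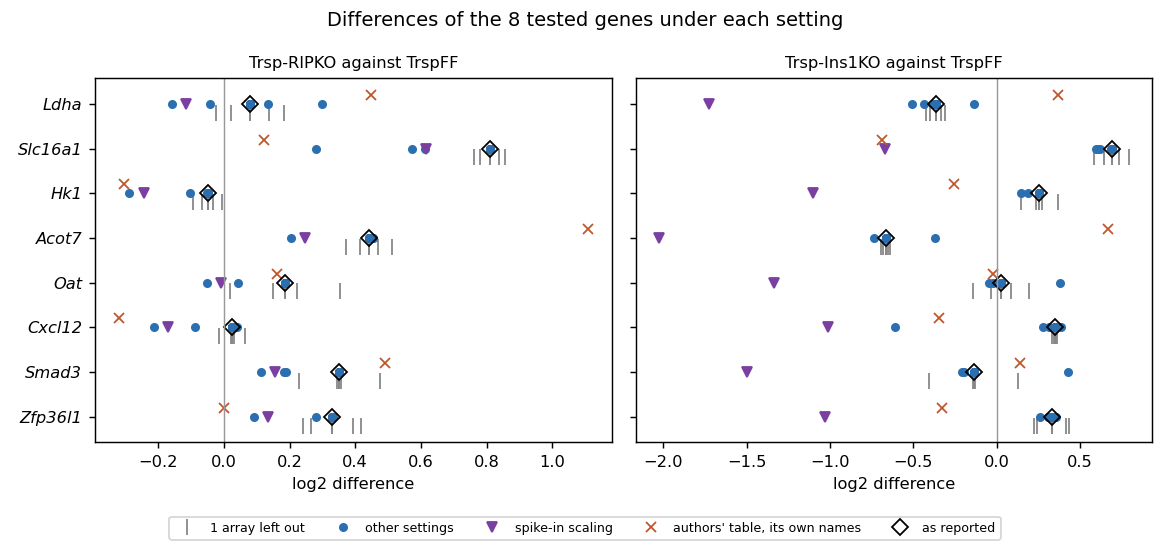
Log2 difference from TrspFF (horizontal axis) of the 8 tested genes under each processing setting, for Trsp-RIPKO (left) and Trsp-Ins1KO (right); diamonds are the reported values, and ticks leave out 1 array. Spike-in scaling moves all 8 genes below 0 in Trsp-Ins1KO, Slc16a1 to -0.67 and Acot7 to -2.03, where the median of all genes is -1.37. The authors' table with its own names turns each Trsp-Ins1KO value around.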

How the data were processed

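Per the file headers, the authors read 6 Cy3 1-colour arrays (design 026655) with Feature Extraction 10.7.3.1, and the deposited processed intensity is background-subtracted, detrended and floored, not scaled between arrays. The members, gene lists and tests were chosen with earlier results of these data known.

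From the processed intensity, log2 minus each array's 75th percentile was computed (R 4.3.3). The values exclude 1377 control spots and all outlier spots, repeated spots were averaged per probe, and 3 of 39429 probes dropped out. RefSeq accessions named 66.1% of probes through a GRCm38.p6 table; the array header names mm9, so no array coordinates are given. A probe entered where both arrays of any 1 group were well above background (23199 probes), and a gene took its brightest such probe, giving 19021 genes. limma 3.58.1 fitted a mean per group over all 6 arrays (lmFit, eBayes, 5.1 total degrees of freedom, tested on simulated data), with Benjamini-Hochberg adjustment over all genes, or over all probes for single probes. In the simulated data, for Trsp-RIPKO against TrspFF, 13.4% of log2 changes of 0.5 were recovered, 62.7% of 1 and 95.5% of 2. Small changes are thus mostly missed, and the lack of a call does not show that a gene was unchanged. Where both arrays of the dimmer group lacked signal well above background, a bound ("at least") was taken: the measured mean of the brighter group minus a floored mean of the dimmer one, in which each array contributes its probe's own signal or, if that is higher, the dimmest signal that still counted as well above background. The number of arrays limits the precision. The arrays of a group held different values and each was counted; whether they are separate samples or repeats of one RNA was not tested.

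Named genes are the members, up to 3 called genes with the largest change per pathway list and comparison, the 3 brightest markers per list, Ins1, Ins2, Gcg, Sst and Ppy, and the 3 nearest profiles of Ldha and Slc16a1. Other genes of those lists enter as counts, and Cxcr4, Zfp36l2, Ucn3, Trpm5, Glp1r, Fabp1, Alb, Mki67, Hba-a1, Ptf1a, Xist and Ddx3y were named after their values were seen. A few genes that this rule selects are not reported here.

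A further table deposited by the authors holds log2 values for 39485 probes, with scaling not given in the sources used here. Probes in it were centred on their median over the 6 columns (within 0.01 in 100% of probes), and with columns taken by the matching scanner file its differences equalled those of the scaled log2 intensities to within 0.000577, so scale and centring are settled, and which source names TrspFF and Trsp-Ins1KO rightly is not. Column medians were 0.0866 and 0.141 (named TrspFF), 0.0115 and -0.0291 (Trsp-RIPKO), and -0.0795 and -0.0453 (named Trsp-Ins1KO). Alternatives covered scaling, background (normexp on the median spot signal, used in place of the mean signal), dim-probe filter, probe choice, variance model, arrays in the fit, replicate block and the authors' table. Promoter sequences are RefSeq's.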

Additional observations from a re-analysis of the deposited data

Results flagged for a closer look

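Under the scanner files' labels, the effects of the 2 Cre lines against TrspFF differed for 3 genes by the limma test of the difference itself, Trsp-Ins1KO against Trsp-RIPKO. Acot7 was lower in Trsp-Ins1KO by -1.11 (adjusted p = 0.00138, lower on 2 of 2 arrays than on either Trsp-RIPKO array). Over 17 settings that keep those labels it was -2.27, with spike-in scaling, to -0.82. Ldha, on its brightest probe, was lower by -0.45 (adjusted p = 0.0224, 2 of 2 arrays). Over those settings, the mean over its probes included, it was -1.61, with spike-in scaling, to -0.28. The last value, with median scaling, was not called (adjusted p = 0.0795). Spike-in scaling called 18253 of 19021 genes lower between the lines, with a median of -1.17, so a call there says little about a gene. Relative to that median, Acot7 was -1.10 and Ldha -0.44. Cxcl12, on its brighter probe, was higher by 0.32 (adjusted p = 0.019, 2 of 2 arrays), but its direction did not hold. Over those settings it was -0.84, with spike-in scaling, to 0.49, and the mean over both probes, the dimmer below background in Trsp-Ins1KO, was -0.64. The adjusted p of 0.000245 to 0.0818 over those settings therefore covers both directions, and 1 of 6 fits without an array kept the call.

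With the names of the authors' table, 2 of the 3 differences were not called: Ldha was -0.08 (adjusted p = 0.548), Cxcl12 was -0.026 (adjusted p = 0.777), and Acot7 was -0.44 (adjusted p = 0.0156). Both Trsp-RIPKO arrays were on a slide of their own, and an effect of the slide cannot be told apart from one of the genotype. No group of 2 arrays can be searched for an array that stands apart.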

How the results depend on the processing

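Over 24 gene-and-comparison results and 18 settings each, 335 of 432 kept their direction and side of the threshold, 29 lost the call, 23 gained one and 45 changed sign. The number of members called in Trsp-RIPKO was 1 with median scaling and 1 with spike-in scaling, and 0 to 2 leaving out 1 array. In Trsp-Ins1KO it was 8 with spike-in scaling, all lower, 7 with normexp background and 2 to 4 leaving out 1 array. Between the lines it was 8, 7 and 1 to 3. Most of all 19021 genes were called under these settings too. Spike-in scaling called 137 higher and 18077 lower in Trsp-Ins1KO, and 84 higher and 18253 lower between the lines. Normexp called 9199 higher and 4772 lower in Trsp-Ins1KO, and 8290 higher and 3767 lower between the lines. The counts of 8 and 7 members are therefore no result about the set. The replicate block left 2, 4 and 3 members called. Same-numbered arrays correlated weakly in their deviations, at 0.0645 to 0.0934. With 1 deviation per group, these values cannot settle whether same-numbered arrays share anything, and the labels do not say what the numbers stand for.

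Signs changed as follows. Median scaling gave -0.16 (Ldha), -0.21 (Cxcl12) and -0.051 (Oat) in Trsp-RIPKO, -0.046 (Oat) in Trsp-Ins1KO, and 0.046 (Slc16a1), 0.0050 (Oat) and 0.17 (Zfp36l1) between the lines. Quantile normalization gave -0.088 (Cxcl12) in Trsp-RIPKO, -0.022 (Oat) in Trsp-Ins1KO and 0.023 (Zfp36l1) between the lines. Spike-in scaling gave -0.11 (Ldha), -0.17 (Cxcl12) and -0.0084 (Oat) in Trsp-RIPKO, -0.67 (Slc16a1), -1.10 (Hk1), -1.01 (Cxcl12), -1.33 (Oat) and -1.03 (Zfp36l1) in Trsp-Ins1KO, and -0.86 (Hk1) and -0.84 (Cxcl12) between the lines. Normexp gave -0.040 (Ldha) in Trsp-RIPKO, 0.43 (Smad3) in Trsp-Ins1KO, and 0.31 (Slc16a1), 0.24 (Smad3), 0.19 (Oat) and 0.022 (Zfp36l1) between the lines. The mean over probes gave -0.61 (Cxcl12) in Trsp-Ins1KO and -0.64 between the lines. The authors' table with its own names gave -0.32 (Cxcl12) in Trsp-RIPKO, 0.37 (Ldha), -0.69 (Slc16a1), -0.25 (Hk1), 0.67 (Acot7), -0.35 (Cxcl12), 0.14 (Smad3), -0.024 (Oat) and -0.33 (Zfp36l1) in Trsp-Ins1KO, and -0.026 (Cxcl12) between the lines. Leaving out 1 array gave -0.024 to 0.18 (Ldha) and -0.013 to 0.065 (Cxcl12) in Trsp-RIPKO, -0.41 to 0.13 (Smad3) and -0.14 to 0.19 (Oat) in Trsp-Ins1KO, and -0.11 to 0.10 (Zfp36l1) between the lines. The cause was not tested, except that spike-in and median scaling shift all genes of an array alike.

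Of all called genes, 51.9%, 50% and 49.8% were higher in the 3 comparisons (Trsp-RIPKO, Trsp-Ins1KO, between the lines); the shares were 21.7%, 41.7% and 70.8% with median scaling, 31.5%, 0.752% and 0.458% with spike-in scaling, and 53.2%, 65.8% and 68.8% with normexp, where 9199 rose and 4772 fell in Trsp-Ins1KO against 4371 and 4366. The median of all genes moved by -0.24, -0.08 and 0.16 with median scaling and by 0.03, 0.16 and 0.14 with normexp. Without TrspFF 1, 706 genes rose and 156 fell in Trsp-RIPKO, against 3592 and 3329; with no filter on dim probes it was 1851 and 841 of 32494. Slide could not be fitted as a term, since Trsp-RIPKO alone lay on its slide, and the fit of TrspFF and Trsp-Ins1KO alone is the one within their slide. In Trsp-Ins1KO against TrspFF, with no filter on dim probes, 10242 genes rose and 3701 fell, and the median of all genes was 0.28. The lower intensity of the Trsp-Ins1KO arrays, with 51.4% to 52.2% of probes above background against 57.5% to 61%, is a limit for dim probes. Those of Slc16a1 and of Cxcl12 NM_021704 are among them. Hk2 and 1 probe each of Hk1 and Smad3 were not well above background in any group.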
